A study of Mus musculus with 22 samples.

Results

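Mitochondrial ribosomal protein genes were taken here as the protein-coding genes whose GENCODE M21 symbol begins with Mrpl or Mrps followed by a number. The rule found 78 genes among the 47729 of the count tables, 49 with an Mrpl (large subunit) and 29 with an Mrps (small subunit) symbol. They lie on 17 chromosomes. A further 5 rows with such symbols are annotated as processed pseudogenes (Mrpl23-ps1, Mrpl48-ps, Mrps36-ps1, Mrps36-ps2 and Mrps36-ps3) and were left out.

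Gene expression was measured by bulk RNA sequencing in 22 libraries of mouse embryonic stem (ES) cells grown with serum and LIF, the cytokine that keeps these cells pluripotent. The untreated set held 3 libraries of E14 cells, an ES cell line, 3 Dux-KO clones (15, 22 and 52) and 4 clones titled Duxnto1 (17, 22, 31 and 40), called Dux n=1 here. Both kinds of edited cell were made with CRISPR-Cas9, and the names are read as no Dux and 1 Dux copy of the cluster that encodes the embryonic transcription factor DUX. The treated set held WT, KO22 and N22 cells, each with the solvent DMSO or with GSK-3484862, a compound that leads to loss of the maintenance DNA methyltransferase DNMT1, for 3 days, with 2 libraries per combination. The sample titles give KO22 as Dux-KO22 and N22 as Dux-N22, which appear to be single clones of the Dux-KO and Dux n=1 kinds, so that clone and genotype cannot be told apart in this set. The dose is 1 uM in the treatment protocol and 2 uM in the series' design text. The study asks what Dux copy number does to gene expression before and after loss of DNA methylation.

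Mitochondria carry their own ribosome, which makes the few proteins encoded by mitochondrial DNA, all of them parts of the respiratory chain and ATP synthase. Its RNAs come from mitochondrial DNA, but every one of its proteins is encoded in the nucleus, made in the cytosol and imported. Many of them have a bacterial counterpart, and others are found only in mitochondria. Mrps18a and Mrps30 carry small subunit symbols although structures of the mammalian ribosome place them in the large subunit, and they are counted here by symbol. Many nuclear genes for mitochondrial proteins have promoters with sites for the ETS factor GABP, for NRF1 and for YY1.

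Total counts were 15803194 to 19427794 per library. The pluripotency markers Pou5f1, Sox2, Nanog and Klf4 were expressed in all libraries, and of 11 fibroblast genes, which would mark feeder cells, Col1a2, Col3a1, Lum, Dcn and Twist2 had 0 to 22 counts in any library. Others on that list were read in every library, with 8 to 116 counts for Col1a1, 38 to 214 for Fbn1, 44 to 330 for Pdgfrb and 150 to 971 for Thy1. Dux itself (Duxf3) had 0 or 1 counts in the E14 libraries, 5 in the library labelled Dux-KO clone 22, 0 and 1 in the other Dux-KO clones and 0 to 3 in the Dux n=1 clones. With GSK-3484862 it had 19 and 18 counts in WT, 13 and 11 in N22 and 0 in both KO22 libraries. With DMSO it had 1 count in each WT library, 3 and 0 in N22 and 0 in both KO22 libraries. The 5 counts go against the Dux-KO label of that untreated library but are too few to settle it. Dux was read at very low depth in all untreated cells, and reads that map to several places were not counted. In bulk RNA, fewer cells of a type and less RNA per cell cannot be told apart.

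Promoters were available for 69 of the 78 genes in the RefSeq-based table (GRCm38.p6, 250 bases before to 50 bases after the annotated start). Of the members that rose or fell most with GSK-3484862 in WT cells and had an entry, 3 are printed 5′ to 3′ to show how their promoters differ. Capitals mark a match, on either strand, to CCGGAAG (the core of ETS and GABP sites) or to the YY1 motif, whose letters are the capitals in Mrps11. Mrpl52 (chr14:54426659-54426958, plus strand) rose. It holds the ETS core 47 bases before and 2 bases after the start. Mrps11 (chr7:78782881-78783180, plus strand) also rose. It holds the YY1 motif 109 bases before the start. Mrpl23 (chr7:142532782-142533081, plus strand) fell and holds no match to any motif searched.
Mrpl52: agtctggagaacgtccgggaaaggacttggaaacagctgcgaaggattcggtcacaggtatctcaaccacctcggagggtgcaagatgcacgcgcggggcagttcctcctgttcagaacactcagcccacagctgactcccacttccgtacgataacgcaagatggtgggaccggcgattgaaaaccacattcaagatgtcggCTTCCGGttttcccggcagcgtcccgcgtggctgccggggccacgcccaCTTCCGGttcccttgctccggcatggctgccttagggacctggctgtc
Mrps11: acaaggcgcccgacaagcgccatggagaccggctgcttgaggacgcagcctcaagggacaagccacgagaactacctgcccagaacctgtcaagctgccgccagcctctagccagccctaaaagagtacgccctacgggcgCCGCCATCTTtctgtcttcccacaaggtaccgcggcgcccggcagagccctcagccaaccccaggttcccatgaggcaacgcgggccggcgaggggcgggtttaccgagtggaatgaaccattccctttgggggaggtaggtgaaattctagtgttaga
Mrpl23: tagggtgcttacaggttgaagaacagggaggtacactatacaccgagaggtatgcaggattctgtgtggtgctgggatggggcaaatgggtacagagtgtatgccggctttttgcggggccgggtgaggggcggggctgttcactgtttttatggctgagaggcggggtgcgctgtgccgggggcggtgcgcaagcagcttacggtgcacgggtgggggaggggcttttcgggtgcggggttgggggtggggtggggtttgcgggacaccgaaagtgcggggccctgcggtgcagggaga

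The ETS core was found in 25 of the 69 member promoters (36.2%), against 11.9% of 17492 promoters of protein-coding genes of the same length. The YY1 motif was found in 5 (7.25% against 1.27%): Mrpl35, Mrpl37, Mrps11, Mrps18a and Mrps27. The NRF1 motif was found in 3 (4.35% against 1.32%): Mrpl32, Mrpl39 and Mrpl9. The E-box CACGTG, bound by MYC and related factors, was found in 5 (7.25% against 7.9%), and TATAAA in 4 (5.8% against 13.3%). Member promoters were thus richer in the ETS core and the YY1 motif than promoters at large and poorer in TATAAA, with a median GC content of 58.33% against 56.33%. Among the genes that fell with GSK-3484862 in all 3 genotypes, named with the responses, the ETS core was in 2 of the 14 with a promoter entry (14.3%). It was in 3 of 11 (27.3%) of those that rose in 1 or 2 genotypes, and in 7 of 15 (46.7%) of those called in none. A match is a stretch of letters and not a measured binding site.

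The members differed widely in level on the TPM scale, which divides by the deposited gene length. Mrpl42, a protein of the large subunit found only in mitochondria, was highest with a mean of 380 TPM (319 to 446 over 22 libraries). It was followed by Mrpl2 (242 TPM), which lies near the peptidyl transferase centre, Mrpl34 (237 TPM) and Mrpl4 (205 TPM), and by Mrps12 of the decoding centre (197 TPM). The lowest detected were Mrpl35 (13.1 TPM), Mrps25 (9.25 TPM), Mrpl33 (7.97 TPM) and Mrpl48 (6.24 TPM, range 4.22 to 8.31). The gap between the highest and the lowest gene is far wider than the spread of any of these genes over the libraries, as the plot of levels by gene shows. Order and gap depend in part on the deposited length, which is 666 bases for Mrpl42 and 8152 for Mrpl48. Mrpl34, with 645 bases, had 927 to 1200 counts per library. Mrpl13, with 7936 bases, had 1089 to 1850 counts but a mean of only 24.6 TPM. The part of length in the gap was not tested.

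**Figure D1:**
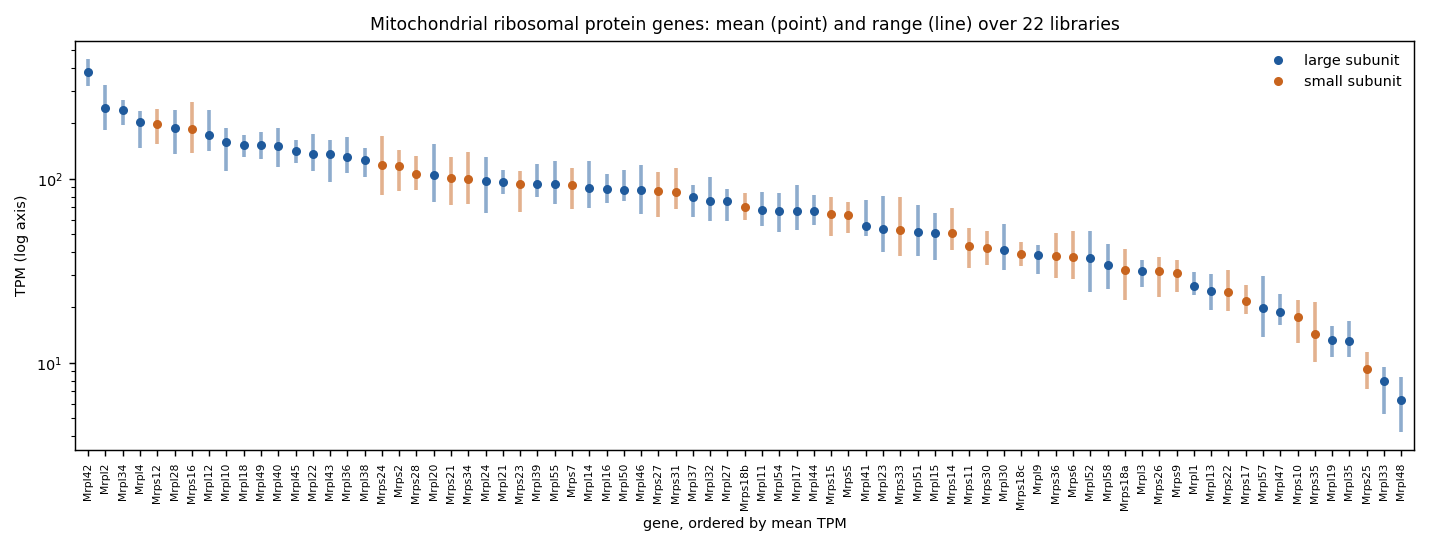
Level of each of the 77 detected mitochondrial ribosomal protein genes in TPM (log axis), ordered by its mean. Points are means over 22 libraries and lines run from the lowest to the highest library. Mrpl42 lies at 380 TPM and Mrpl48 at 6.24 TPM, and large (blue) and small (orange) subunit genes are interspersed.

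Mrps18a, Mrps18b and Mrps18c are paralogs that take different places in the ribosome. Mrps18b had 70.1 TPM (59.4 to 84), Mrps18c 38.8 TPM (33.4 to 45.3) and Mrps18a 31.8 TPM (22.1 to 41.6). Mrps18b was above both others in its full range, and the ranges of Mrps18a and Mrps18c overlapped. Mrps18b shares 30.54% and Mrps18c 23.23% of its exon bases with other genes, and Mrps18a shares none, so this order is uncertain.

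Mrpl53 had 0 counts in all 22 libraries. The gene lies at chr6:83109040-83109939 (GRCm38), and 87.97% of its 790 exon bases are also exon of another protein-coding gene model, Gm42688, on the same strand. The recorded counting command does not turn on the option to count a read that overlaps several genes, so a count of 0 is not a measure of its expression. Exon overlap touched 30 of the 78 members, and 48 shared no exon base. Mrps34 shared 77.76% of its exon bases (with Mapk8ip3 and Nme3), Mrps25 69.8% (with Nr2c2), Mrps30 37.8%, Mrpl19 36.0%, Mrps18b 30.54% and Mrpl24 26.34%. Mrpl47 shared 24.17%, Mrps18c 23.23%, Mrps27 22.56%, Mrps24 15.42%, Mrps6 15.1% and Mrpl10 14.05%. Lower shares included Mrpl12 (13.05%), Mrpl46 (12.23%), Mrps7 (11.87%) and Mrpl14 (11.17%). Mrpl46 and Mrps11 lie head to head on chromosome 7 and share 173 exon bases on opposite strands. Strand was not used in the counting, so that counts of all members with shared exon bases are uncertain. The other 77 members passed the filter on low counts in both sets.

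The sum over all members was taken in CPM (counts scaled to library size, adjusted by the TMM method within each set). It ran from 4192 to 5368 CPM over the untreated libraries. In untreated cells it was 4828, 4748 and 4774 CPM in E14. Dux-KO clone 15 had 5368, the library labelled Dux-KO clone 22 had 5035 and clone 52 had 4777 CPM. Dux n=1 clones 17, 22, 31 and 40 had 4805, 4192, 5012 and 4824 CPM. Dux-KO clone 15 thus stood highest and Dux n=1 clone 22 lowest, and the 3 groups overlapped.

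In the treated set the sum was 4225 and 4169 CPM in WT with DMSO and 3932 and 3925 CPM with GSK-3484862. It was 4519 and 4564 CPM in KO22 with DMSO and 4163 and 3998 CPM with the compound. It was 4408 and 4353 CPM in N22 with DMSO and 3996 and 3951 CPM with the compound. In each genotype both treated libraries lay below both controls. The means changed by -6.40% in WT, -10.2% in KO22 and -9.29% in N22. On total counts alone they changed by -2.28% in WT, -9.47% in KO22 and -6.22% in N22. The ratio of large to small subunit sums stayed between 1.94 and 2.06 in all 22 libraries.

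**Figure D2:**
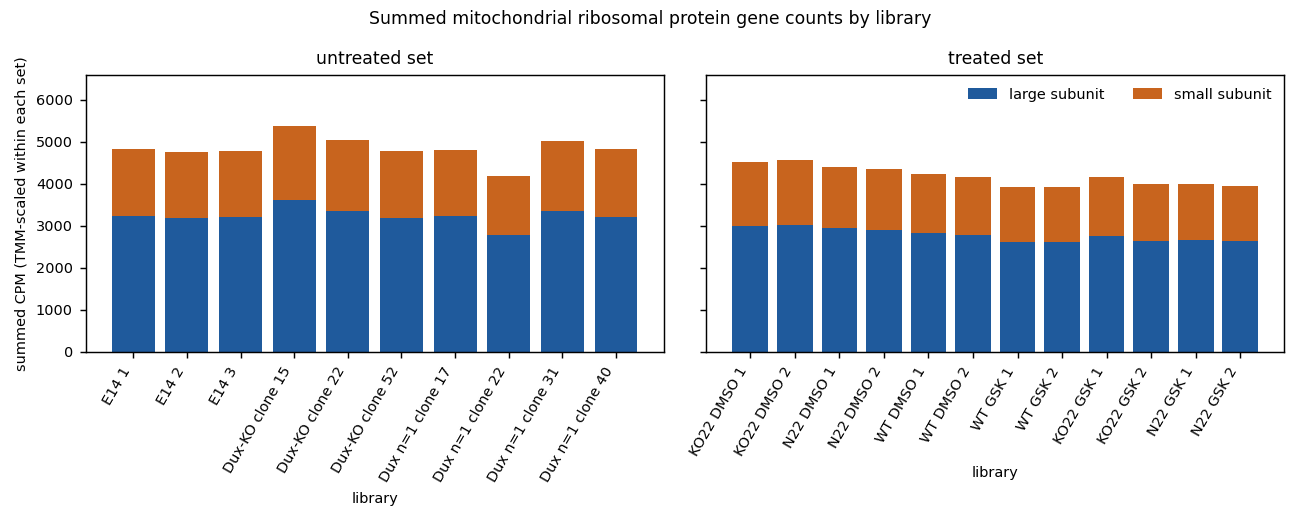
Summed CPM of the large (blue) and small (orange) subunit genes in each library, with the untreated and treated sets scaled separately. In the treated set every GSK-3484862 library of a genotype is below both DMSO libraries of that genotype, and in the untreated set Dux n=1 clone 22 is lowest at 4192 CPM.

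With GSK-3484862 more of these genes fell than rose in WT cells, and the changes were small. Of 77 members tested, 28 fell and 11 rose with GSK-3484862, and 38 did not pass the test (Benjamini-Hochberg adjusted p below 0.05 over all genes, edgeR quasi-likelihood test). Of all 16641 genes tested, 56.8% were called, 28.1% lower and 28.7% higher. The members' log2 differences ran from -0.49 to 0.46, with a median of -0.07 against 0.00 for all genes. No member was both called and changed by 1.5-fold or more, as 27.9% of all genes were. Large subunit genes gave 14 lower and 7 higher of 48, and small subunit genes 14 lower and 4 higher of 29. With scaling to total counts alone, the split of calls moved to 23 lower and 19 higher.

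Mrpl15, a large subunit protein with a bacterial counterpart, fell most. It had 169 and 165 CPM with DMSO and 118 and 120 with the compound in WT, a log2 difference of -0.49 ± 0.04 (SE; adjusted p = 1.69e-15). It had 146 and 148 against 112 and 108 CPM in KO22 (log2 difference -0.41 ± 0.04) and 174 and 172 against 129 and 127 CPM in N22 (log2 difference -0.43 ± 0.04). Mrpl15 was among the 5 largest decreases in each genotype, where the rule for naming genes requires that treated and control libraries do not overlap.

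Mrpl23, which sits at the exit of the peptide tunnel, had 44.5 and 39.6 CPM with DMSO and 27.9 and 32.8 with the compound in WT (log2 difference -0.47 ± 0.08, adjusted p = 3.53e-06). In N22 it had 40.2 and 32.6 against 26.4 and 26.4 CPM (log2 difference -0.46 ± 0.09, adjusted p = 1.12e-05). In KO22 it had 32.2 and 33.4 against 31.1 and 29.6 CPM and did not pass the test (adjusted p = 0.305). Its KO22 control level was already below that of WT. Mrpl14, another conserved large subunit protein, had 33.0 and 33.4 against 23.2 and 25 CPM in WT (log2 difference -0.46 ± 0.08). The same gene had 25.7 and 28.5 against 26.8 and 27.2 CPM in KO22, where control and treated libraries overlapped.

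Among small subunit genes, Mrps21 had 25.2 and 26.0 CPM with DMSO and 18.9 and 19.4 with the compound in WT (log2 difference -0.42 ± 0.09, adjusted p = 8.66e-05). Its log2 difference was -0.43 ± 0.09 in KO22 and -0.36 ± 0.09 in N22, each called. Mrps16, a conserved protein whose mutation in people impairs mitochondrial translation, had 38.5 and 36.1 against 28.4 and 29.4 CPM in WT. It had 42.0 and 41.6 against 31.4 and 30.7 CPM in KO22, and 41.8 and 37.3 against 27.6 and 28.8 CPM in N22. Mrps16 fell in all 3, with log2 differences of -0.37 ± 0.07, -0.43 ± 0.07 and -0.49 ± 0.08. It was the largest decrease of any member in N22.

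The genes that rose in WT were led by Mrpl52, a large subunit protein found only in mitochondria. It had 11.2 and 9.65 CPM with DMSO and 15.2 and 13.4 with the compound (log2 difference 0.46 ± 0.13, adjusted p = 0.00141). Its values were 14.8 and 14 against 14.1 and 13.1 CPM in KO22, and 13.4 and 15.9 against 11.9 and 12.3 CPM in N22, and neither passed the test. The rise of Mrpl52 was thus called in WT alone, from a control level below that of both clones.

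Mrps11, a conserved protein of the small subunit platform, had 25.5 and 25.5 CPM with DMSO and 35.3 and 32.2 with the compound in WT (log2 difference 0.40 ± 0.08, adjusted p = 1.04e-05). In N22 it had 29.8 and 32.1 against 41.2 and 37.4 CPM (log2 difference 0.34 ± 0.08). In KO22 it had 34.8 and 36.0 against 35.7 and 34.3 CPM, and the groups overlapped. Mrpl46, named because it is the head-to-head neighbour, had 32.8 and 36.1 against 40.0 and 38.8 CPM in WT and was also called higher (log2 difference 0.19 ± 0.07, adjusted p = 0.0176).

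Mrps7, which binds the head of the small subunit, had 50.9 and 52.3 CPM with DMSO and 64.9 and 69.3 with the compound in WT (log2 difference 0.38 ± 0.06, adjusted p = 1.11e-07). It rose in N22 by 0.24 ± 0.06 and had a log2 difference of -0.02 ± 0.06 in KO22, where its control libraries were at 72.4 and 77.3 CPM. Mrpl27, close to the peptidyl transferase centre, rose by 0.34 ± 0.09 in WT (22.7 and 21.4 against 29.3 and 26.5 CPM). Mrps26 rose by 0.26 ± 0.07 in WT (45.3 and 40.0 against 51.4 and 51.0 CPM), and its call was lost without the second WT control library (adjusted p = 0.0584).

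**Figure D3:**
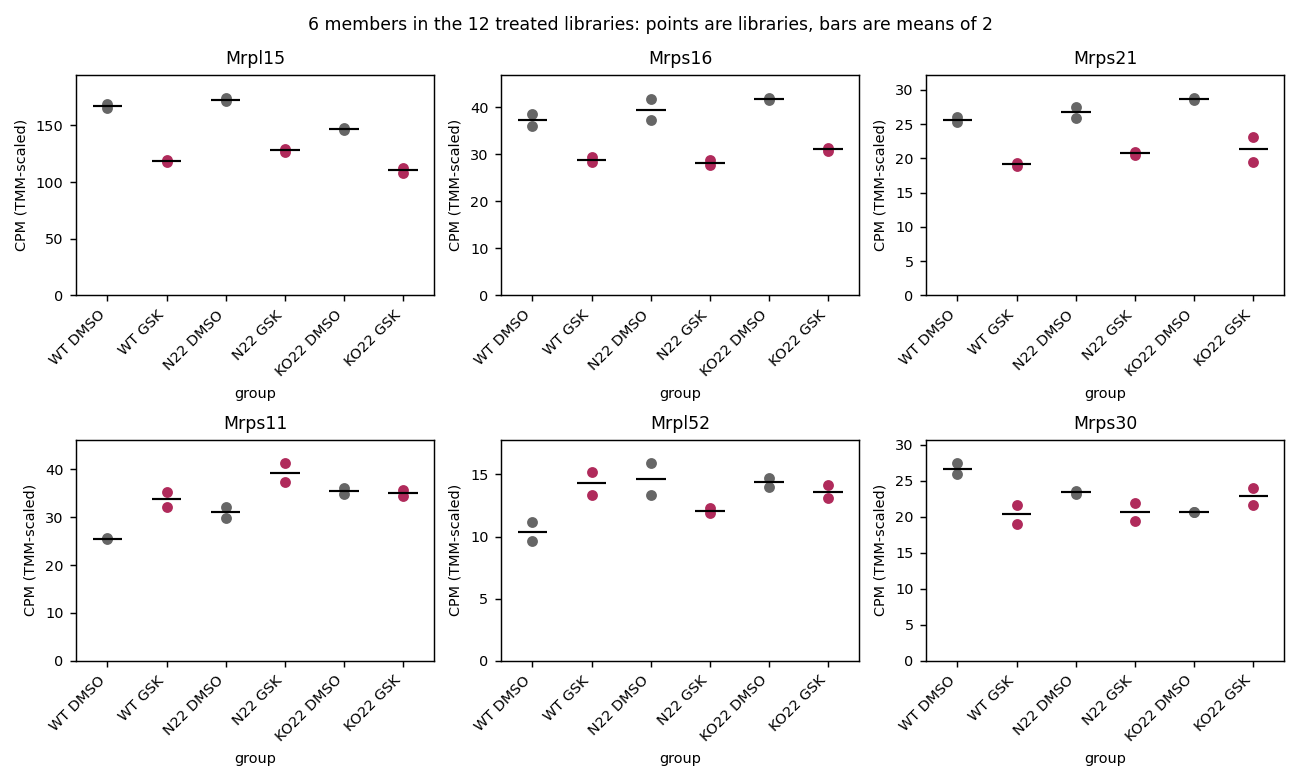
CPM of 6 genes in the 12 treated libraries (points) with the mean of each pair (bars), DMSO in grey and GSK-3484862 in red, on axes that start at 0. Mrpl15, Mrps16 and Mrps21 are lower with the compound in all 3 genotypes, while Mrps11, Mrpl52 and Mrps30 differ between genotypes.

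In KO22 cells 37 members fell and 1 rose, with 46% of all genes called (21.2% lower, 24.8% higher). The median member difference was -0.15 on the log2 scale, against 0.00 for all genes. Large subunit genes gave 22 lower and 1 higher of 48 and small subunit genes 15 lower and 0 higher of 29. The 1 that rose was Mrpl54 (17.7 and 16.3 against 19.2 and 22.5 CPM, log2 difference 0.29 ± 0.11, adjusted p = 0.0214), and it was not called with DESeq2 (adjusted p = 0.0961) or with an offset for GC content (adjusted p = 0.643). Decreases therefore made up nearly all calls in this genotype. Again no member was called with a change of 1.5-fold or more, against 19.8% of all genes.

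The largest decrease in KO22 was that of Mrps15, a conserved small subunit protein. It had 41.9 and 41.6 CPM with DMSO and 29.6 and 30.4 with the compound (log2 difference -0.48 ± 0.08, adjusted p = 5.48e-07). Mrpl36, a small conserved protein of the large subunit, had 50.6 and 44.7 against 36.3 and 38.0 CPM (log2 difference -0.36 ± 0.07). Mrpl36 did not pass the test in WT or N22 (log2 differences -0.10 ± 0.07 and -0.06 ± 0.07). Mrps22, another gene whose mutation impairs mitochondrial translation, fell in KO22 (42.2 and 38.1 against 30.3 and 32.7 CPM, log2 difference -0.35 ± 0.08).

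In N22 cells 34 members fell and 5 rose, with 53% of all genes called (26% lower, 26.9% higher). The median member difference was -0.13, against 0.00 for all genes. Small subunit genes gave 15 lower and 3 higher of 29, and large subunit genes 19 lower and 2 higher of 48. With scaling to total counts alone the split was 27 lower and 11 higher. No member was called with a change of 1.5-fold or more (24.4% of all genes).

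Mrpl4, a conserved large subunit protein, had 108 and 109 CPM with DMSO and 84.2 and 80.2 with the compound in N22 (log2 difference -0.40 ± 0.05, adjusted p = 1.13e-09). Mrpl30 had 55.1 and 50.6 against 41.3 and 40.0 CPM (log2 difference -0.38 ± 0.07). Besides Mrps11 and Mrps7, the genes that rose were Mrpl54 (0.33 ± 0.11), Mrps2 (0.19 ± 0.05) and Mrpl27 (0.22 ± 0.09). For Mrpl27 the libraries overlapped (22.2 and 25.5 against 30.7 and 25 CPM). Mrpl54 lost its call without the second N22 control (adjusted p = 0.106) or the second treated library (adjusted p = 0.222), and Mrps2 without the first treated library (adjusted p = 0.0641).

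The 3 responses use separate libraries but share 1 estimate of spread for each gene, so their calls are not fully independent. The overlap of calls is given as a description. A set of 17 genes fell in all 3 genotypes: Mrpl2, Mrpl4, Mrpl12, Mrpl15, Mrpl24, Mrpl30, Mrpl40, Mrpl42, Mrps5, Mrps9, Mrps14, Mrps15, Mrps16, Mrps21, Mrps24, Mrps35 and Mrps36. These are 22.1% of the members, and 12.4% of all genes tested fell in all 3. They are 17 of the 28 that fell in WT, of the 37 in KO22 and of the 34 in N22. Of them Mrpl24, Mrpl40, Mrps9, Mrps14 and Mrps36 are named only because they are in this set, after their values were seen. The calls of Mrps15 in WT and N22 and of Mrps35 in WT were each lost without 1 or more single libraries (for Mrps15 adjusted p = 0.0971 without the second WT control and 0.676 without the first treated N22 library, for Mrps35 0.134 without the second WT control). No member rose in all 3, against 14.4% of all genes, and 5 rose in 2 (6.49% of members, 11% of all genes: Mrpl27, Mrpl54, Mrps2, Mrps7 and Mrps11). Mrpl20 and Mrpl39 rose in WT and fell in KO22, and Mrpl39, too, is named after its values were seen. The Mrpl20 calls were lost without the first WT control (adjusted p = 0.089) and the second treated KO22 library (0.0506). Opposite calls were found in 4.42% of all genes. A further 17 members (22.1%) were called in no genotype, as were 24.9% of all genes, among them Mrpl34, Mrpl41, Mrpl44, Mrps6 and Mrps18b. The plot of the response by gene shows this order.

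**Figure D4:**
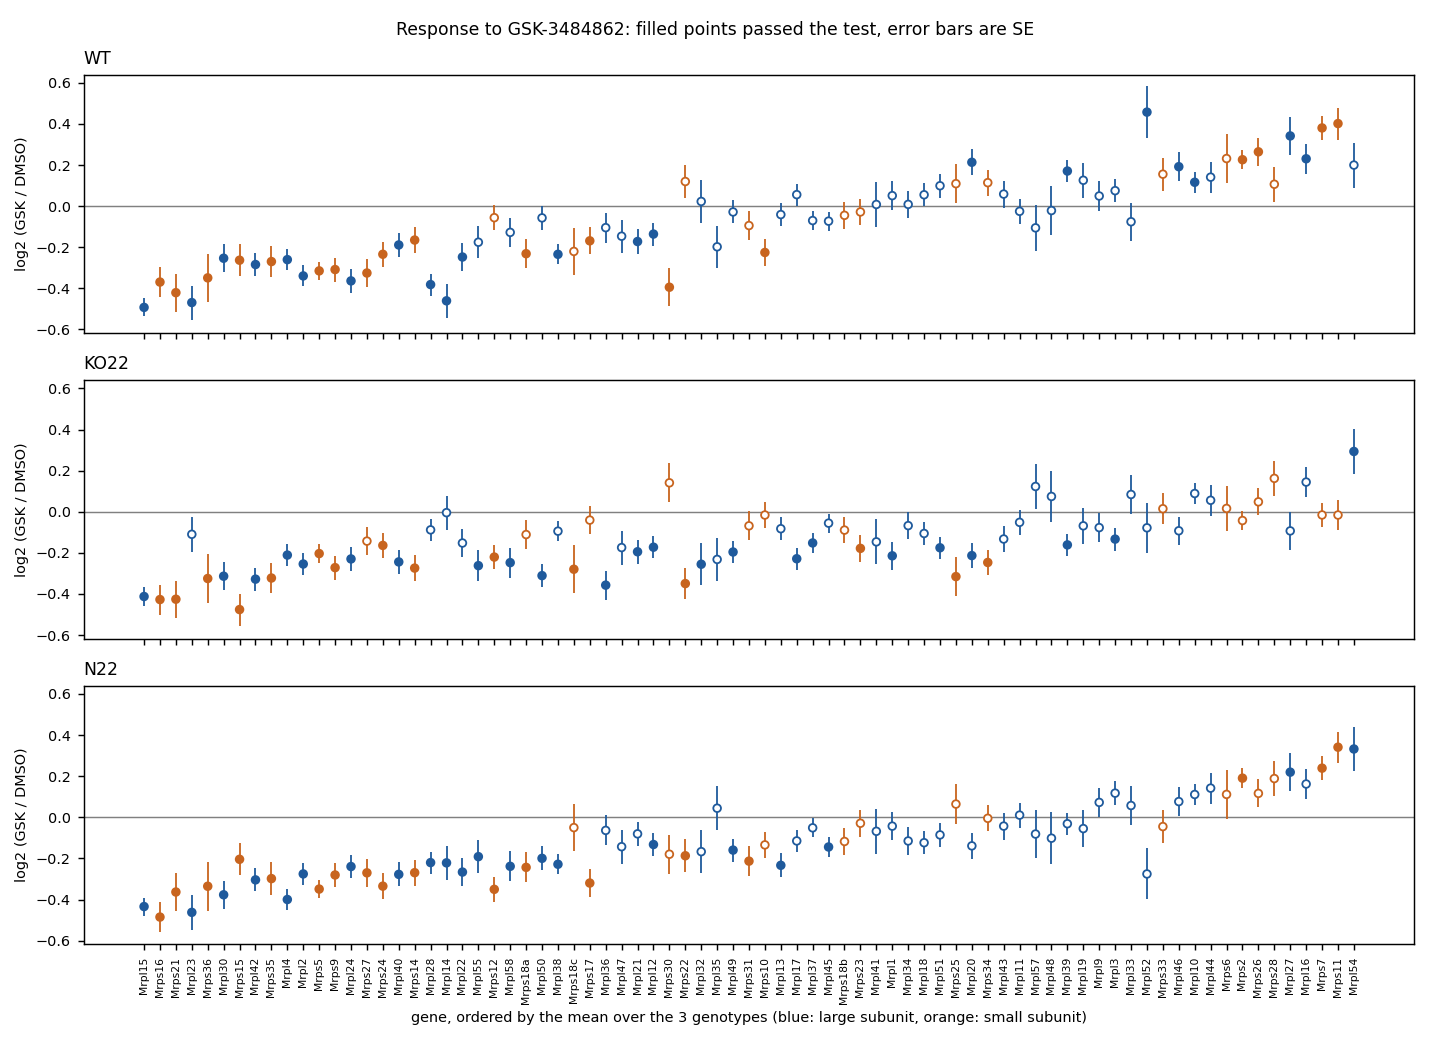
Log2 difference between GSK-3484862 and DMSO for each of the 77 tested genes in WT, KO22 and N22, ordered by the mean over the 3 genotypes. Points are edgeR estimates with standard error bars, filled where the adjusted p is below 0.05, blue for large and orange for small subunit genes. The genes at the left are filled and below 0 in all 3 panels, from Mrpl15 at -0.49 in WT.

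Genes fixed by their role within the ribosome behaved unequally. Mrpl12, which also binds the mitochondrial RNA polymerase, had log2 differences of -0.14 ± 0.06 in WT, -0.17 ± 0.05 in KO22 and -0.13 ± 0.06 in N22. All 3 were called, but the WT and N22 calls were lost with DESeq2 (adjusted p = 0.165 and 0.128) and with total-count scaling (adjusted p = 0.264 and 0.204). Mrpl12 also lost its KO22 call without the second treated library (adjusted p = 0.28). Mrps5, at 164 and 162 against 129 and 133 CPM in WT, fell in all 3 genotypes (-0.31 ± 0.04, -0.20 ± 0.05 and -0.35 ± 0.04).

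Mrpl58, a hydrolase that frees stalled ribosomes, fell in KO22 (-0.25 ± 0.07) and N22 (-0.24 ± 0.07) and did not pass the test in WT (-0.13 ± 0.07). Its N22 call was lost without the second treated library (adjusted p = 0.128) or the first control (0.0734). Mrpl45, which faces the inner membrane at the tunnel exit, fell in N22 (-0.14 ± 0.05, 140 and 136 against 122 and 128 CPM; adjusted p = 0.123 without the first treated library and 0.074 without the first control) and did not pass in WT (-0.07 ± 0.05) or KO22 (-0.06 ± 0.05). Mrpl3 fell in KO22 (-0.13 ± 0.06, adjusted p = 0.0446), a call lost with DESeq2 (0.0818), total-count scaling (0.0672), the GC content offset (0.0891) or without any of the 4 KO22 libraries (0.0822 to 0.168). Mrpl41 and Mrpl44 passed in no genotype.

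Of the Mrps18 paralogs, Mrps18a fell in WT (-0.23 ± 0.07, 40.9 and 44.6 against 34.0 and 38.9 CPM) and N22 (-0.24 ± 0.07). The WT call was lost with DESeq2 (adjusted p = 0.0542), without the second control (0.121) or without the first treated library (0.197), and the N22 call of Mrps18a without the first treated library (0.112). Mrps18c fell in KO22 (-0.28 ± 0.12, adjusted p = 0.0411), and was not called with DESeq2 (0.0996) or without the first control (0.271) or either treated library (0.143 and 0.0894). Mrps18b passed in none, with log2 differences of -0.04 ± 0.06, -0.09 ± 0.06 and -0.12 ± 0.06 in WT, KO22 and N22. The paralog highest in TPM was thus the one with no call, and its counts are uncertain because of shared exon bases.

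The difference between 2 responses was tested directly as an interaction, and both interactions share the WT libraries. Between KO22 and WT 21 members differed, 17 with a lower and 4 with a higher value in KO22, where 31.8% of all genes were called (13.5% lower, 18.3% higher). The 5 with the most negative difference were Mrpl52 (-0.54 ± 0.17, adjusted p = 0.0137), Mrps22 (-0.47 ± 0.11), Mrpl27 (-0.43 ± 0.13), Mrpl20 (-0.43 ± 0.09) and Mrps25 (-0.42 ± 0.14). Mrpl20, a conserved large subunit protein, had 44.8 and 48.7 CPM with DMSO and 55.3 and 53.1 with the compound in WT, but 66.2 and 66.1 against 58.5 and 55.6 CPM in KO22. Its treated levels were thus close in both genotypes while its control levels were apart. The Mrpl52 difference was lost without the second WT control (adjusted p = 0.0875), the first treated WT library (0.083) or the second treated KO22 library (0.0512), and that of Mrps25 without the second KO22 control (0.0513) or the first treated WT library (0.144).

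The 4 higher in KO22 were Mrps30 (0.54 ± 0.13, adjusted p = 0.0011), Mrpl14 (0.46 ± 0.12), Mrpl23 (0.36 ± 0.12) and Mrpl28 (0.29 ± 0.08). Mrps30 had 26.0 and 27.4 CPM with DMSO and 21.6 and 19.0 with the compound in WT, but 20.7 and 20.7 against 24.0 and 21.6 CPM in KO22. It fell in WT (-0.39 ± 0.09) and had a difference of 0.14 ± 0.10 in KO22 that did not pass. With the GC content offset Mrpl14 (adjusted p = 0.0537) and Mrpl28 (0.157) lost their interaction, and with DESeq2 Mrpl23 did (0.111). Mrpl23 also lost it without the first KO22 control (0.0707), the first WT control (0.128), the first treated WT library (0.164) or the first treated KO22 library (0.0725).

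Between N22 and WT 3 members differed, all lower in N22, where 11.1% of all genes were called (5.26% lower, 5.82% higher). They were Mrpl52 (-0.73 ± 0.18, adjusted p = 0.00254), Mrpl20 (-0.35 ± 0.09, adjusted p = 0.00441) and Mrps12 (-0.29 ± 0.08, adjusted p = 0.0133). Mrpl52 was the 1 member past 1.5-fold in an interaction, as 2.81% of all genes were here. Mrps12 had 66.5 and 61.7 against 61.9 and 61.3 CPM in WT and 72.8 and 81.5 against 62.4 and 58.7 CPM in N22. Its call was lost without the second N22 control (adjusted p = 0.181), the second WT control (0.105) or the second treated N22 library (0.085), and that of Mrpl20 without the first WT control (0.0508).

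KO22 and N22 were then set against WT with DMSO alone. These comparisons share the WT controls with each other and every control with the responses above, so their values are given side by side only. In KO22 34 members were higher and 10 lower than in WT, with 51.9% of all genes called (23.4% higher, 28.5% lower). Members had a median difference of 0.13, against -0.04 for all genes. Large subunit genes gave 22 higher and 5 lower of 48, and small subunit genes 12 higher and 5 lower of 29. The called members that reached 1.5-fold were Mrpl51 and Mrps35, against 22.8% of all genes.

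Mrpl51, a large subunit protein found only in mitochondria, had 99.0 and 94.3 CPM in KO22 and 57.5 and 54.9 in WT (log2 difference 0.78 ± 0.06, adjusted p = 2.55e-19). It had 61.1 and 60.8 CPM in N22, where it did not pass the test. Mrps35 had 56.9 and 65.7 CPM in KO22 and 37.0 and 42.3 in WT (0.63 ± 0.07, adjusted p = 1.17e-10). Mrps33 had 40.7 and 36.5 CPM in KO22 and 27.8 and 24.9 in WT (0.55 ± 0.08). These 3 genes lie on chromosome 6, and none of the 3 was called between N22 and WT.

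Chromosome 6 as a whole was higher in KO22. Its 805 tested genes had a median log2 difference of 0.27, with 340 higher and 116 lower (42.2% higher), and elsewhere the median was -0.06 with 22.4% higher, as the plot by chromosome shows. The 3 other members tested on it were Mrps25 (0.14 ± 0.10), Mrpl19 (-0.03) and Mrpl35 (-0.12), none of them called. Outside chromosome 6, 31 members were higher and 10 lower, with a median of 0.11. In N22 the chromosome 6 median was -0.08, and in the Dux-KO clones of the untreated set it was 0.20. High values of the 3 genes were not limited to Dux-KO cells. In untreated Dux n=1 clone 40 Mrpl51 had 108 CPM, against 57.0 to 77.4 in the other Dux n=1 clones. Mrps35 had 66.8 CPM there (38.0 to 47.7 in the others) and Mrps33 38.5 CPM (27.4 to 29.9). The part of the chromosome-wide shift in KO22 in the values of Mrpl51, Mrps35 and Mrps33 was not tested.

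**Figure D5:**
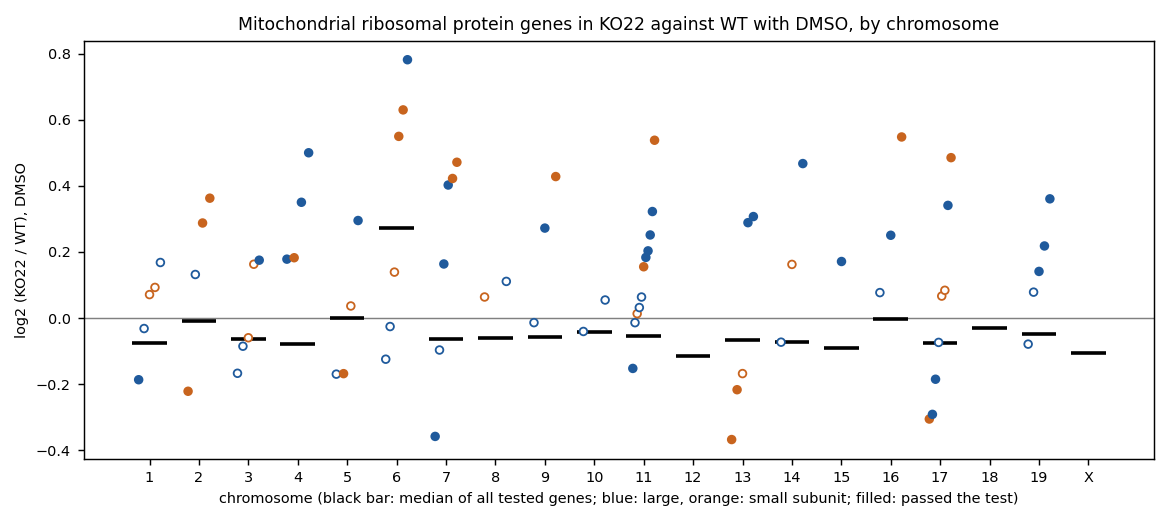
Log2 difference between KO22 and WT with DMSO for each tested member by chromosome (blue large, orange small subunit, filled where called), with the median of all tested genes of that chromosome as a black bar. The chromosome 6 bar lies at 0.27, and Mrpl51 (0.78), Mrps35 (0.63) and Mrps33 (0.55) lie above it.

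Members on other chromosomes were also higher in KO22. Mrps6, a conserved small subunit protein that shares exon bases with another gene, had 17.2 and 19.5 CPM against 12.1 and 13.1 in WT (0.55 ± 0.12). Mrps7 had 72.4 and 77.3 against 50.9 and 52.3 CPM (0.54 ± 0.06, adjusted p = 4.39e-12). Mrpl20 (0.50 ± 0.06), Mrps11 (0.47 ± 0.08) and Mrps22 (0.43 ± 0.08) were called as well. KO22 and WT controls did not overlap for these genes, which the naming rule required of Mrps6 and Mrps7.

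The members lower in KO22 were led by Mrps30 (-0.37 ± 0.09), Mrpl23 (-0.36 ± 0.08) and Mrps10 (-0.31 ± 0.06). Mrps10 had 49.3 and 48.0 CPM in KO22 and 62.9 and 57.4 in WT. Mrpl14 (-0.29 ± 0.08) and Mrps5 (-0.22 ± 0.04) followed, and the call of Mrpl14 was lost with the GC content offset (adjusted p = 0.06) or without the first KO22 control (0.0635).

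In N22 with DMSO 13 members were higher and 0 lower than in WT, with 25.4% of all genes called (11.5% higher, 13.9% lower). Members had a median difference of 0.06, against -0.02 for all genes. Mrpl52 (0.49 ± 0.13), Mrps11 (0.28 ± 0.08), Mrpl20 (0.27 ± 0.06), Mrps12 (0.27 ± 0.06) and Mrpl17 (0.26 ± 0.05, adjusted p = 0.000109) led the list. Mrpl17, a conserved large subunit protein, had 105 and 96.9 CPM in N22 and 83.6 and 84.9 in WT. No member was called with 1.5-fold or more, against 5.71% of all genes. The count fell to 8 without the first N22 control and to 5 without the second, where Mrpl52 (adjusted p = 0.103), Mrps11 (0.117) and Mrps12 (0.0693) lost their calls. Mrpl52 also lost it without the second WT control (0.0669).

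In the untreated set few members differed. Between the Dux-KO clones and E14 6 members were higher and 2 lower, with 20.4% of all genes called (9.26% higher, 11.1% lower). The median member difference was 0.09, against 0.02 for all genes, and no member was called with 1.5-fold or more, against 14.7% of all genes. The 2 lower genes are large subunit genes, and the 6 higher ones comprise 4 large and 2 small subunit genes.

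Mrps24, a conserved small subunit protein, had 56.2, 57.6 and 56.2 CPM in E14 and 95.1, 77.6 and 78.7 in Dux-KO clones 15, 22 and 52 (log2 difference 0.56 ± 0.12, adjusted p = 0.0102). Mrps18a had 41.5, 41.5 and 38.0 CPM in E14 and 53.0, 58.3 and 51.5 in the clones (0.43 ± 0.12). Mrpl57 (0.48 ± 0.16, adjusted p = 0.049), Mrpl43 (0.38 ± 0.10), Mrpl28 (0.34 ± 0.10) and Mrpl2 (0.33 ± 0.10) were the other higher genes. Every clone lay above every E14 library for these genes, which the naming rule required of all but Mrpl2.

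Mrpl50, a large subunit protein found only in mitochondria, had 93.9, 88.9 and 95.6 CPM in E14. It had 71.9, 63.3 and 73.0 CPM in the Dux-KO clones (-0.42 ± 0.10, adjusted p = 0.0158) and 63.9, 61.8, 64.6 and 72.7 CPM in the Dux n=1 clones (-0.50 ± 0.09, adjusted p = 0.0139). Mrpl42 had 129, 112 and 125 CPM in E14, 109, 87.0 and 80.2 in the Dux-KO clones (-0.40 ± 0.13, adjusted p = 0.0423) and 93.8, 80.6, 81.2 and 85.0 in the Dux n=1 clones (-0.52 ± 0.12, adjusted p = 0.0239). Both genes were lower in all 7 edited clones than in any E14 library, which the naming rule required of them in each comparison. Both comparisons share the E14 libraries.

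These calls rested on few libraries. Without E14 replicates 1, 2 or 3 the Dux-KO count was 0, 3 or 1, without Dux-KO clone 15 it was 4, and without Dux n=1 clone 17 it was 5. Without Dux n=1 clone 22, which has no direct part in the comparison but enters the estimate of spread, it was 14 (12 higher, 2 lower). Leaving out the library labelled Dux-KO clone 22 gave 6 higher and 1 lower. Total-count scaling gave 9 higher and 1 lower. The mean GC content of genes, each weighted by its counts in the library, was 49.08 to 49.42% in E14 and 50.18 to 50.25% in the Dux-KO clones. The summed CPM of 11 fibroblast markers was 16.7 to 18.9 in E14, 29.3 to 75.0 in the Dux-KO clones and 24.2 to 42.9 in the Dux n=1 clones. Col1a1 (log2 difference 2.02 ± 0.41, adjusted p = 0.00719) and Thy1 (1.96 ± 0.33, adjusted p = 0.00366) were called higher in the Dux-KO clones, and Thy1 also in the Dux n=1 clones (1.22 ± 0.31, adjusted p = 0.0347), while Col1a2, Col3a1, Lum, Dcn and Twist2 were at or near 0. The part of these markers in the member values was not tested. With an offset for GC content 6 members were higher and 0 lower, but Mrps24 (adjusted p = 0.116), Mrps18a (0.394), Mrpl43 (0.118), Mrpl2 (0.944), Mrpl28 (0.991, log2 difference -0.00), Mrpl50 (0.954) and Mrpl42 (0.82) were not called.

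Mrpl50 and Mrpl42 were the 2 members called between Dux n=1 and E14, both lower, with 9.16% of all genes called (4.28% lower, 4.88% higher). The median member difference was -0.05, against 0.01 for all genes, and 0.02 without Dux n=1 clone 22. Counts were 0, 1 and 0 without E14 replicates 1, 2 and 3, 7 without Dux-KO clone 15 and 4 without Dux n=1 clone 22. With the GC content offset neither gene was called (adjusted p = 0.247 for Mrpl50 and 0.224 for Mrpl42). The mean GC content weighted by counts was 49.85 to 49.98% in the Dux n=1 clones. No member was called with 1.5-fold or more, against 5.85% of all genes.

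Between Dux n=1 and Dux-KO 0 members were called with edgeR and 0 with DESeq2, and 0% of all genes with either. At an unadjusted p below 0.05 there were 3 members, and 856 of 14796 genes. Members had a median difference of -0.11, against 0.00 for all genes. Of 77 members, 70 had a negative and 7 a positive log2 difference. Dux-KO clone 15 held the highest value of the untreated set for 37 of 77 members and Dux n=1 clone 22 the lowest for 45. The same count over all genes is not given here, so this is not shown to be particular to the members. The share of counts on cytosolic ribosomal protein genes was 6.40% in Dux-KO clone 15 and 4.97 to 5.13% in E14.

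The other parts of the mitochondrial translation apparatus were read from lists of genes grouped by role. Among all genes tested, 28.1% fell and 28.7% rose in WT, 21.2% and 24.8% in KO22, and 26% and 26.9% in N22. These shares stand beside each list count of the compound response from here on. Whether any list departs from them was not tested. Of the 5 ribosome subunits without an Mrp symbol, 2 fell in WT, 1 in KO22 and 2 in N22, and 0 rose. Dap3, a GTP-binding small subunit protein, fell in all 3 (-0.41 ± 0.05, -0.14 ± 0.05 and -0.33 ± 0.05). Chchd1 fell in WT (-0.28 ± 0.08) and N22 (-0.31 ± 0.09).

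Of 30 assembly and rRNA modification genes, 10 fell and 5 rose in WT, 9 fell and 2 rose in KO22, and 11 fell and 4 rose in N22. In KO22 against WT with DMSO 12 were higher and 4 lower, where 23.4% of all genes were higher and 28.5% lower. The higher ones were led by Mrm2, a methyltransferase of the mitochondrial rRNA (1.03 ± 0.10), and Rbfa, a small subunit assembly factor (0.72 ± 0.05). Mrm2 rose with the compound in WT (0.71 ± 0.10) and fell in KO22 (-0.39 ± 0.10). Of 15 translation factors, 7 fell and 2 rose in WT, 6 fell and 2 rose in KO22, and 6 fell and 3 rose in N22. Tufm, the elongation factor that brings aminoacyl-tRNA to the ribosome, fell in all 3 (-0.35 ± 0.04, -0.28 ± 0.04 and -0.37 ± 0.04), as did Guf1 (-0.79 ± 0.09, -0.48 ± 0.09 and -0.72 ± 0.09). Gfm1, an elongation factor for translocation, rose in all 3 (0.31 ± 0.05, 0.37 ± 0.05 and 0.24 ± 0.05).

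Of 17 mitochondrial aminoacyl-tRNA synthetases, 7 fell and 2 rose in WT, 6 fell and 2 rose in KO22, and 8 fell and 1 rose in N22. Vars2, for valine, fell in all 3 (-0.53 ± 0.07, -0.20 ± 0.07 and -0.42 ± 0.07), and Mars2, for methionine, rose in WT (0.82 ± 0.08). Of 13 genes of mitochondrial DNA transcription and maintenance, 5 fell and 2 rose in WT, 4 fell and 0 rose in KO22, and 6 fell and 1 rose in N22. Tfam, which packages mitochondrial DNA and starts its transcription, fell in all 3 (-0.13 ± 0.05, -0.31 ± 0.05 and -0.15 ± 0.05).

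Calls among the messenger RNAs encoded by mitochondrial DNA were increases. Of 13 genes, 8 rose in WT, 3 in KO22 and 7 in N22, and 0 fell in any. mt-Nd1, a subunit of complex I, rose by 1.02 ± 0.07 in WT and by 0.42 ± 0.07 in N22 and did not pass in KO22 (0.11 ± 0.07). mt-Co1, a core subunit of complex IV, rose in all 3 (0.31 ± 0.04, 0.25 ± 0.04 and 0.22 ± 0.04). Their share of all counts was 1.75 and 1.63% in WT with DMSO and 2.87 and 2.70% with the compound. It went from 2.23 and 2.31% to 2.61 and 2.81% in KO22, and from 2.12 and 2.33% to 3.11 and 2.97% in N22.

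Proteins of the cytosolic ribosome, which makes the mitochondrial ones, were counted by symbol, as protein-coding genes that begin with Rpl or Rps and a number, Rps6k kinases left out. Of 86 tested among 88 such genes, 28 fell and 9 rose in WT, 3 fell and 31 rose in KO22, and 11 fell and 20 rose in N22. In the interaction of KO22 with WT 35 were higher and 4 lower in KO22, while the mitochondrial ribosomal protein genes gave 4 higher and 17 lower. Over all genes 18.3% were higher and 13.5% lower in that interaction. In KO22 against WT with DMSO 5 cytosolic genes were higher and 56 lower, against 34 and 10 for the mitochondrial set. The shares over all genes were 23.4% higher and 28.5% lower there. Without pseudogene symbols and Rps19bp1, a choice made after seeing the data, 81 genes gave 27 lower and 8 higher in WT, 2 lower and 29 higher in KO22, and 11 lower and 19 higher in N22. Whether the gene sets differ was not tested.

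Of 15 regulators of nuclear mitochondrial genes tested, 7 fell and 2 rose in WT, 6 fell and 1 rose in KO22, and 9 fell and 1 rose in N22. Gabpa, the DNA-binding part of GABP, fell in all 3 (-0.25 ± 0.05, -0.22 ± 0.05 and -0.27 ± 0.05). Nrf1 passed in none (-0.08 ± 0.06, 0.03 ± 0.06 and -0.06 ± 0.06), and Yy1 fell in KO22 alone (-0.17 ± 0.04). Ppargc1b, a coactivator of mitochondrial genes, fell in all 3 (-1.77 ± 0.19, -1.09 ± 0.20 and -1.37 ± 0.19). Myc rose in WT (0.90 ± 0.05), fell in N22 (-0.14 ± 0.05) and did not pass in KO22 (-0.10 ± 0.05), where its level with DMSO was above that of WT (1.57 ± 0.05).

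Of 21 genes of the mitochondrial stress response, 12 fell and 5 rose in WT, 12 fell and 3 rose in KO22, and 11 fell and 6 rose in N22. Atf5, a transcription factor of that response, rose in all 3 (1.35 ± 0.07, 0.56 ± 0.06 and 1.66 ± 0.07), while Lonp1, a matrix protease among its targets, fell in all 3 (-0.44 ± 0.04, -0.26 ± 0.04 and -0.44 ± 0.04). In the untreated Dux-KO clones 7 of these 21 genes were higher than in E14 and 0 lower. There 4 of 13 mitochondrial messenger RNAs were lower and 0 higher. Over all genes 9.26% were higher and 11.1% lower in that comparison. The summed CPM of 10 pluripotency markers ranged from 6143 to 6581 with DMSO and from 4841 to 4937 with GSK-3484862. Of the 10 genes, 9 fell in WT, 9 in KO22 and 10 in N22. The summed CPM of 10 primitive endoderm markers was 347 to 546 with DMSO and 527 to 629 with the compound. Sparc (203 to 445 CPM over all 22 libraries) and Lama1 (91.1 to 167 CPM) were the largest parts of that sum. Gata4, Gata6, Sox17, Pdgfra, Dab2, Sox7 and Foxa2 were each at or below 5.86 CPM in every library, so the sum says little about them. The part of either marker set in the member values was not tested.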

How the data were processed

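The submitters' processing notes name HISAT2 2.1.0, fastp 0.23.2, featureCounts 2.0.1 and DESeq2 1.40.2, without the role of each. The authors deposited raw counts per gene, made per the file headers on Ensembl 84 (GRCm38) exons with the paired option in 22 of 22 files, no option for multi-mapping reads and no strand option. Symbols came from GENCODE M21. The 10 untreated and 12 treated libraries were fitted separately with edgeR 4.0.16 (quasi-likelihood, robust, TMM scaling, filterByExpr with a minimum count of 10) in R 4.3.3 with limma 3.58.1. All groups of a set shared 1 estimate of spread, and 14796 and 16641 genes were tested. Calls needed an adjusted p below 0.05 (Benjamini-Hochberg, over all genes tested), and every adjusted p is from this test unless another is named. CPM are TMM-scaled within a set, so levels are not compared between sets, and TPM use the deposited gene lengths. The summed CPM of marker genes use total counts alone.

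Depth was 15803194 to 19427794 counts per library. Alternatives were DESeq2 1.42.0, relative log expression (RLE) factors, total counts only, no count filter, a GC content offset, a replicate block, only the compared groups, and leaving out each library. The scripts were tested on simulated data. The labels do not say that the 2 libraries of a treated group, or the 3 of E14, are separate cultures, and p-values then measure only the spread between these samples. Members, lists and tests were chosen with earlier results of these data known. Genes named were those fixed by role, the 5 highest and 5 lowest by mean TPM, members at or under 10 counts in every library, and, for each comparison and direction, up to 5 called members with the largest fold and non-overlapping groups (in interactions by fold alone). Genes on the other lists are examples. Promoter sequences are from RefSeq (GRCm38.p6), and motif shares are set against the promoters of protein-coding genes in place of all promoters in the table.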

Additional observations from a re-analysis of the deposited data

Results flagged for a closer look

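In 5 of the 77 tested genes 1 of the 4 Dux n=1 clones stood apart from the other clones by more than Dixon's 95% critical value. Chance alone gives such a gap in about 1 in 20 groups. In clone 22 Mrpl20 was 51.4 CPM, Mrpl22 was 48.4 CPM, Mrpl55 was 32.7 CPM and Mrps11 was 25.7 CPM, each below the other clones. In clone 31 Mrpl28 was 104 CPM, above the others.

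The response to GSK-3484862 differed between KO22 and WT in the interaction test for 21 genes. The difference (KO22 minus WT, log2) was -0.54 for Mrpl52, -0.47 for Mrps22, -0.43 for Mrpl20, -0.43 for Mrpl27, -0.42 for Mrps11, -0.42 for Mrps25 and -0.40 for Mrps7. It was -0.36 for Mrps34, most of whose exon bases are shared with other genes, -0.33 for Mrpl39, -0.28 for Mrpl17, -0.28 for Mrpl46, -0.27 for Mrpl1, -0.27 for Mrpl51 and -0.27 for Mrps2. It was -0.25 for Mrpl36, -0.25 for Mrpl50 and -0.21 for Mrpl3. It was positive for Mrps30 (0.54), Mrpl14 (0.46), Mrpl23 (0.36) and Mrpl28 (0.29).

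Between N22 and WT the interaction was called for Mrpl52 (-0.73), Mrpl20 (-0.35) and Mrps12 (-0.29).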

How the results depend on the processing

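The number of members called between Dux-KO and E14 was 2 with no count filter, 11 with DESeq2 and 0 to 14 when each library was left out. Between Dux n=1 and E14 it was 5 with DESeq2, 5 with only the compared groups, 1 with the GC content offset and 0 to 7 when each library was left out. Leaving out each library gave 0 between Dux n=1 and Dux-KO, 31 to 39 for the response in WT, 27 to 39 in KO22 and 31 to 40 in N22. It gave 15 to 22 for the KO22 interaction, 2 to 4 for the N22 interaction, 35 to 44 for KO22 against WT and 5 to 15 for N22 against WT with DMSO. With the GC content offset the N22 interaction gave 5, as it did with the replicate block and the offset together, which gave 20 for N22 against WT.

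The GC content offset reversed Mrpl28 between Dux-KO and E14 (-0.0024), and leaving out Dux n=1 clone 22 reversed the median between Dux n=1 and E14, which ran from -0.0682 to 0.0166 when each library was left out. The causes were not tested. On total counts alone the summed levels were 4688 CPM in E14, 4122 in WT with DMSO, 4028 in WT with GSK-3484862, 4303 in N22 with DMSO and 4035 in N22 with GSK-3484862.

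Replicate numbers of the treated groups did not pair the samples: correlations of same-numbered deviations ran from -0.0159 to 0.0294. With a replicate block the counts were 39 in WT, 38 in KO22, 39 in N22, 21 and 3 for the interactions, and 44 and 14 for KO22 and N22 against WT. Groups of 2 libraries, and untreated clones that differ widely, limit what could be detected.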
